A study of Mus musculus with 4 samples.

Results

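Germ cell specification and the Dppa genes were followed as a set of 9 genes, chosen by name from the 51205 genes of the deposited expression table. The set holds 5 genes that specify or maintain germ cells (Prdm1, Prdm14, Tfap2c, Nanos3 and Dnd1) and 4 developmental pluripotency associated genes (Dppa2, Dppa3, Dppa4 and Dppa5a), and all 9 were found in the table. RNA was sequenced from 4 populations of the mouse aorta-gonad-mesonephros (AGM) region at embryonic day 11, and each population is represented by 1 library. The cells came from pooled embryos in which GFP, placed behind an internal ribosome entry site in the Runx1 locus, reports Runx1 transcription. The labels give the genotype as WT with Runx1-GFP as the source, and the supplement of the study describes a mixture of embryos carrying the reporter on 1 or both alleles, and the share of each genotype in a library is not known here. Every population was gated as negative for the pericyte proteins NG2 and PDGFRB and positive for CD31, an endothelial surface protein. Endothelial cells (EC) were negative for ckit, CD45 and GFP. Hemogenic endothelial cells (HEC), the endothelial cells from which blood stem cells arise, were negative for ckit and CD45 and positive for GFP. Cells of the intra-aortic hematopoietic clusters (IAHC) were ckit positive and were divided by GFP into Runx1+ IAHC and Runx1- IAHC, with no gate on CD45. By the study's count the Runx1- IAHC library was made from the fewest cells and the EC library from the most.

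Primordial germ cells are set aside from the epiblast by BMP and WNT signals, which turn on the transcription factors Prdm1, Prdm14 and Tfap2c. These factors silence the somatic program and restore a pluripotency network that includes Dppa genes, and the RNA-binding proteins Nanos3 and Dnd1 then keep the migrating cells alive and prevent them from forming tumors. Germ cells migrate from the hindgut into the genital ridges, which lie within the AGM region, and they carry ckit on their surface.

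Levels are in TPM, a unit of transcript abundance in which the reads of a gene are set relative to its length and to the library. The deposited values equalled a constant of each library times the reads of a gene plus 1, divided by its exonic length, so the read counts could be recovered. A gene without a read is thus listed just above 0, and it is described here as having 0 reads. Recovered reads came to 13188697 in EC, 16377799 in HEC, 15412242 in Runx1+ IAHC and 17233015 in Runx1- IAHC. With 1 library per population there is no replicate error and no test between populations, and every difference is between libraries. Intervals are exact 95% intervals that cover counting error only, and reads copied by PCR are not independent molecules. The intervals also leave out the sampling of cells, which matters most for Runx1- IAHC, the library made from the fewest cells. A fold is a ratio of recovered reads scaled to TPM. A fold against a library with 0 reads was computed against 3 reads in that library and is a bound. Genes were called apart when log2(TPM + 1) differed by at least 2, which is 4-fold on that scale, and only genes that reached 10 TPM in the library with the higher value were compared.

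The RNA of the gated and marker genes was checked first. Runx1 itself had 13 reads in Runx1- IAHC against 1600 in HEC and 1212 in Runx1+ IAHC. Of 9 endothelial markers, all 9 were at 10 TPM or more in both EC and Runx1- IAHC, with summed levels of 1810 and 1985 TPM. Their summed levels were 253 TPM in HEC and 67.6 TPM in Runx1+ IAHC. The 9 hematopoietic markers summed to 40 TPM in Runx1- IAHC and 60.8 TPM in EC, against 2657 TPM in HEC and 1969 TPM in Runx1+ IAHC. The 6 erythroid markers, kept apart from these, summed to 35286 TPM in EC, 17588 TPM in HEC, 433 TPM in Runx1+ IAHC and 441 TPM in Runx1- IAHC. Of the 6, 4 were highest in EC, 1 in HEC and 1 in Runx1- IAHC. Ptprc, which encodes CD45, had 0 reads in Runx1- IAHC.

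The 5' sequences of the members show how unlike their starts can be, and they are given for the genes matched in the RefSeq promoter table, with CG dinucleotides, the sites of DNA methylation, in capitals. Of the 9 members, Prdm1 and Nanos3 were matched, and Prdm14, Tfap2c, Dnd1, Dppa2, Dppa3, Dppa4 and Dppa5a were not. Each sequence is from RefSeq on GRCm38.p6 and runs from 250 bases before to 50 bases after the gene's start, in the direction of transcription. Prdm1 lies at chr10:44458699-44458998 and Nanos3 at chr8:84176503-84176802, both on the minus strand.
Prdm1: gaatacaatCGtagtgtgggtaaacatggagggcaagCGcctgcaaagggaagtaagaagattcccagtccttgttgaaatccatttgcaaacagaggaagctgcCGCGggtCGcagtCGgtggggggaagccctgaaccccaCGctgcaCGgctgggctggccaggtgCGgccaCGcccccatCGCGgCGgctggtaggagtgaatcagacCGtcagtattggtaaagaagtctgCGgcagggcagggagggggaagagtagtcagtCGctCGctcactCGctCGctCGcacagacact
Nanos3: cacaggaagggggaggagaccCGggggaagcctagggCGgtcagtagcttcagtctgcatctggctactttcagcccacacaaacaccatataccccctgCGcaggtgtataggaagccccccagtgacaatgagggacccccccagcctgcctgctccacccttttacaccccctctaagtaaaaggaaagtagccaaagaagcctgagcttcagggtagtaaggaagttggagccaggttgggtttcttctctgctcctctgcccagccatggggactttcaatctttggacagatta
Prdm1 held 20 CG in its 300 bases and Nanos3 held 3, although their GC contents were 59.7% and 55.3%. Over all 32851 promoters of that table the median was 7 CG, with quartiles of 3 and 20, and 73.5% of promoters had fewer CG than Prdm1 whereas 23.3% had fewer than Nanos3. The AP-2 motif GCCNNNGGC, searched on both strands, had 1 match in the Nanos3 window, at position -221 from the start, and 0 in the Prdm1 window, and 16.6% of all promoters held it. The E-box CACGTG (7.15% of all promoters), the octamer ATGCAAAT (1.74%), the TATA box TATAAA (13.6%), the E2F motif TCCCGC (20%) and the PRDM14 motif GGTCTCTAA (0.256%) matched in neither window. These matches describe letters in the windows and are not evidence of binding. Both windows lie inside wider gene spans in the deposited annotation, which starts upstream of the RefSeq start for each gene.

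Among the transcription factors, Prdm14, which restores pluripotency genes and represses DNA methyltransferase genes in germ cells, was at 38.0 TPM in Runx1- IAHC (902 reads) and 2.08 TPM in EC (44 reads), and it had 0 reads in both HEC and Runx1+ IAHC. The Runx1- IAHC level was 18.6-fold that of EC (95% interval 13.8 to 25.8), and at least 339-fold that of HEC and 330-fold that of Runx1+ IAHC. In the libraries without a read its level is limited only to an upper bound of 0.138 TPM in HEC and 0.141 TPM in Runx1+ IAHC. Tfap2c encodes AP-2 gamma, which acts with Prdm1 in the specified cells. It was at 59.7 TPM in Runx1- IAHC (2037 reads), 2.64 TPM in EC (81 reads), 0.267 TPM in Runx1+ IAHC (9 reads) and 0.0781 TPM in HEC (2 reads). The Runx1- IAHC level was 22.9-fold that of EC (18.3 to 28.9) and 249-fold that of Runx1+ IAHC (131 to 544), and the ratio to HEC was 1147 (317 to 9479).

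Prdm1, the repressor of the somatic program also known as Blimp1, did not share this order of magnitude between the Runx1- libraries. It was at 12.5 TPM in Runx1- IAHC (648 reads), 9.51 TPM in EC (446 reads) and 1.39 TPM in Runx1+ IAHC (78 reads), with 0 reads in HEC. The Runx1- IAHC level was 1.32-fold that of EC (1.17 to 1.49), and with scaling by the median ratio of genes the direction turned to 0.928. Prdm1 in Runx1- IAHC was 9.12-fold its level in Runx1+ IAHC (7.2 to 11.7), and EC was 6.91-fold (5.42 to 8.9). Against HEC the bounds were at least 243-fold for Runx1- IAHC, 184-fold for EC and 26.7-fold for Runx1+ IAHC. Prdm1 also serves in endothelial, trophoblast and lymphoid cells, and it was the member with the most reads in Runx1+ IAHC. The ratio of Prdm14 to Prdm1 per length was accordingly 3.03 in Runx1- IAHC (2.73 to 3.36) and 0.215 in EC (0.154 to 0.293).

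Nanos3, the RNA-binding protein that protects migrating germ cells from apoptosis, was at 82.4 TPM in Runx1- IAHC (705 reads), 5.91 TPM in EC (45 reads), 2.18 TPM in HEC (20 reads) and 0.425 TPM in Runx1+ IAHC (3 reads). It was 14.2-fold higher in Runx1- IAHC than in EC (10.5 to 19.7) and 39.7-fold higher than in HEC (25.5 to 65.4), and its ratio to Runx1+ IAHC was 258 (87.9 to 1254). EC exceeded HEC by 2.79-fold (1.61 to 4.99). The miRNA genes Mir181c and Mir181d lie within the span of Nanos3 on the same strand, and the part of a longer miRNA transcript in its reads was not tested. Dnd1, which binds mRNA 3' ends together with Nanos proteins and whose loss leads to testicular teratomas in mice, was at 123 TPM in Runx1- IAHC (2745 reads), 3.98 TPM in EC (80 reads), 1.67 TPM in HEC (41 reads) and 0.936 TPM in Runx1+ IAHC (22 reads). It had the highest fold of the 9 genes between Runx1- IAHC and EC, 31.2 (25 to 39.5), and was 75.4-fold above HEC (55.4 to 105) and 137-fold above Runx1+ IAHC (90.3 to 219). Between the ckit- libraries, EC exceeded HEC by 2.42-fold (1.64 to 3.61). The ratio of Dnd1 to Nanos3 per length was 1.49 in Runx1- IAHC (1.37 to 1.62) and 0.681 in EC (0.467 to 1).

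Dppa3, also called Stella, keeps the DNA methylation factor Uhrf1 away from chromatin and protects maternal marks in the zygote. Its level was 1866 TPM in Runx1- IAHC (15437 reads) and 119 TPM in EC (891 reads), with 3 reads in HEC and 0 in Runx1+ IAHC. Runx1- IAHC was 15.7-fold above EC (14.7 to 16.9) and at least 5650-fold above Runx1+ IAHC, and EC itself was at least 359-fold above Runx1+ IAHC. Dppa5a, an RNA-binding protein of the KH type found in pluripotent and germ cells, was the highest member in Runx1- IAHC, EC and HEC. It was at 3428 TPM in Runx1- IAHC (19681 reads), 490 TPM in EC (2558 reads) and 11.3 TPM in HEC (72 reads), and had 0 reads in Runx1+ IAHC. The Runx1- IAHC level was 6.99-fold that of EC (6.71 to 7.29), 308-fold that of HEC (244 to 394) and at least 7203-fold that of Runx1+ IAHC. Ranked among all 51205 genes by TPM in Runx1- IAHC, Dppa5a was at place 12 and Dppa3 at place 28, and in EC they were at places 292 and 1105.

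Dppa4 and Dppa2 encode partner proteins with a SAP domain that bind DNA and prepare the chromatin of germline and early embryonic genes. Dppa4 was at 144 TPM in Runx1- IAHC (2044 reads), 18.7 TPM in EC (241 reads), 0.437 TPM in HEC (6 reads) and 0.320 TPM in Runx1+ IAHC (4 reads). Dppa2 was lower in each library, at 17.2 TPM in Runx1- IAHC (309 reads) and 0.853 TPM in EC (13 reads), with 0 reads in HEC and 1 in Runx1+ IAHC. The folds of Runx1- IAHC over EC were 7.71 for Dppa4 (6.74 to 8.85) and 21.6 for Dppa2 (12.4 to 41). Within a library, Dppa4 was at 8.4 times Dppa2 per length in Runx1- IAHC (7.45 to 9.5) and 23.5 times in EC (13.5 to 44.9). Similarly, Dppa5a was 1.84 times Dppa3 in Runx1- IAHC (1.8 to 1.88) and 4.14 times in EC (3.83 to 4.47).

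**Figure D1:**
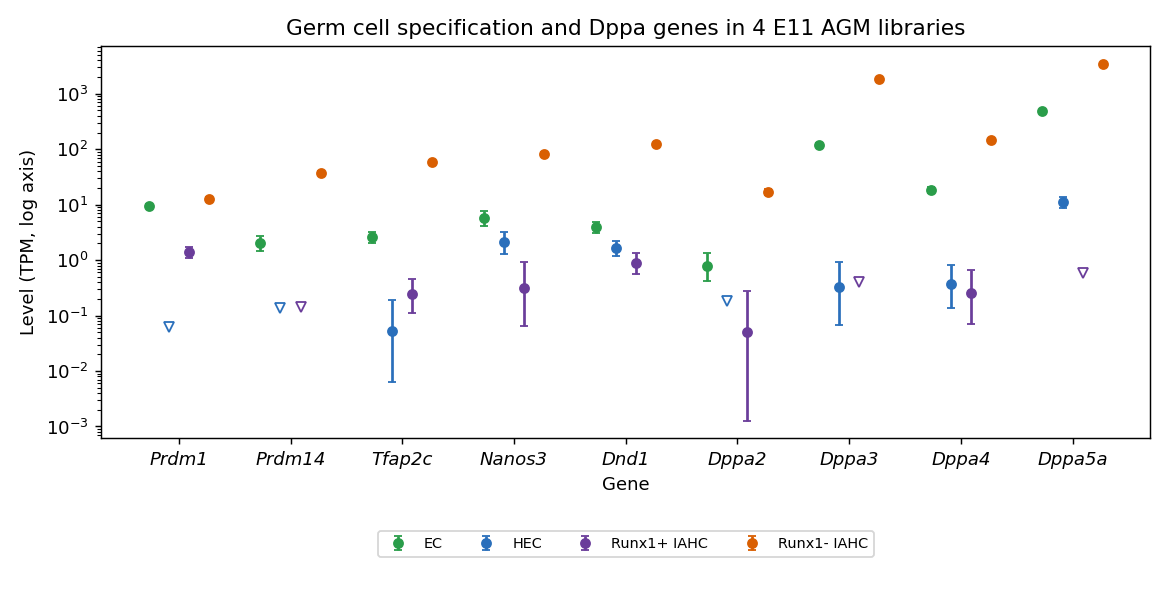
Level of each of the 9 genes in TPM on a log axis, from recovered reads, in the EC, HEC, Runx1+ IAHC and Runx1- IAHC libraries, with exact 95% counting intervals as bars and open triangles at the upper bound of that interval where a library had 0 reads. All 9 genes are highest in Runx1- IAHC and second in EC, except that median-ratio scaling would place Prdm1 higher in EC, and Prdm1 is the gene whose points in these libraries lie nearest, at 12.5 and 9.51 TPM.

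The order of the libraries was shared by all 9 genes at its top. Runx1- IAHC was first and EC second for each gene, with counting intervals that did not overlap between first and second or between EC and the next library. Prdm1 kept this order with the other scalings tried but not with median-ratio scaling, under which EC was above Runx1- IAHC. HEC and Runx1+ IAHC took the last places, and their intervals were apart for Prdm1, Nanos3 and Dppa5a and overlapped for the other 6 genes. How many of all genes have intervals apart in this way was not counted, so these counts describe the 9 genes only. Summed over the 9 genes, the level was 5771 TPM in Runx1- IAHC (44508 reads), 653 TPM in EC (4399 reads), 16.2 TPM in HEC (144 reads) and 3.75 TPM in Runx1+ IAHC (117 reads), which is 0.612%, 0.0678%, 0.00169% and 0.000394% of all TPM. The sum was made up differently in each library. Dppa5a and Dppa3 gave 59.4% and 32.3% of it in Runx1- IAHC and 75.1% and 18.2% in EC, whereas Prdm1 gave 37.1% and Dnd1 25% of the small sum in Runx1+ IAHC. In these bulk libraries fewer cells that express a gene and less of its RNA per cell cannot be told apart.

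At least a 4-fold excess in Runx1- IAHC over EC was found for 8 of the 9 genes, where 20.9% of 8936 genes compared were that much higher. Prdm1 was the exception, having a difference of 0.37 in log2(TPM + 1). Against Runx1+ IAHC, 9 of 9 were higher in Runx1- IAHC with a background of 17.5%, and against HEC 9 of 9 were higher with a background of 20%. The median difference of the 9 genes in log2(TPM + 1) was 3.59 over EC, 5.87 over Runx1+ IAHC and 5.54 over HEC, and the medians over all genes compared were 0.71, 0.53 and 0.63. As folds of recovered reads, with genes at 0 reads placed at their bound, the medians of the 9 genes were 15.7, 330 and 308. None of the 9 was lower in Runx1- IAHC in these comparisons, where 6.39%, 5.6% and 7.48% of all genes compared were at least 4-fold lower. No member reached 10 TPM in Runx1+ IAHC, only Dppa5a did in HEC and only Dppa3, Dppa4 and Dppa5a did in EC. In each comparison, members below 10 TPM in the other library entered through Runx1- IAHC alone and could not come out lower. The backgrounds also hold genes that entered through the other library, so the counts say little beside them. These comparisons share the Runx1- IAHC library and are not independent. In EC only Dppa3, Dppa4 and Dppa5a reached 10 TPM and could be compared with the Runx1+ libraries. All 3 were higher in EC than in HEC with a background of 9.24%, and all 3 were higher than in Runx1+ IAHC with a background of 8.37%. Since they entered through their EC level alone, apart from Dppa5a, which also reached 10 TPM in HEC, these counts say little. Between Runx1+ IAHC and HEC the only gene that reached the minimum was Dppa5a, which was lower in Runx1+ IAHC, as were 6.22% of genes compared.

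**Figure D2:**
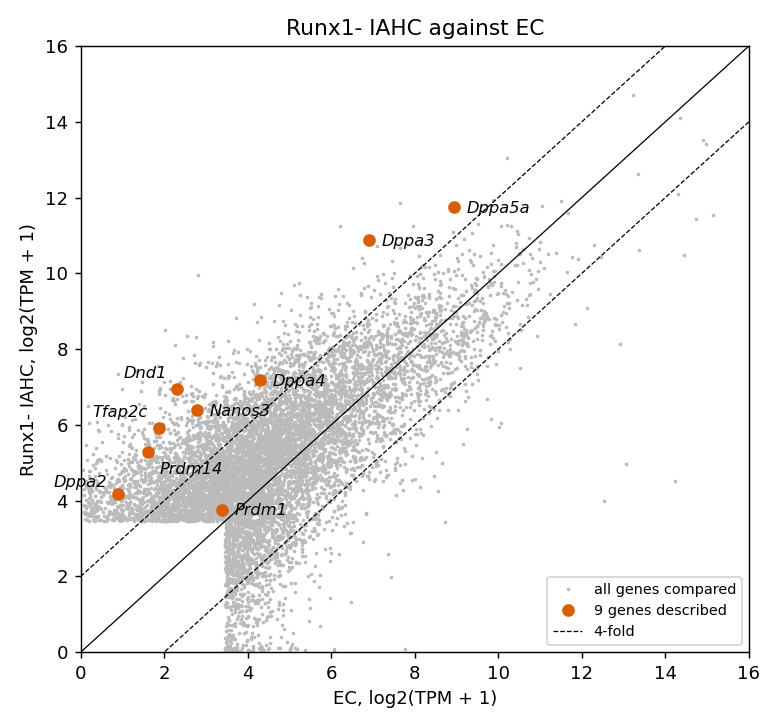
Levels in Runx1- IAHC against EC, both as log2(TPM + 1), for the 8936 genes at 10 TPM or more in either library (grey) and the 9 genes described (orange), with lines of equal level (solid) and of a 4-fold difference (dashed). The 8 genes other than Prdm1 lie above the upper dashed line and Prdm1 lies next to the line of equal level.

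EC held a small but clear share of the Runx1- IAHC level of most members. The EC level was 3.21% of that of Runx1- IAHC for Dnd1 (2.53 to 4.01), 4.38% for Tfap2c (3.46 to 5.46), 4.63% for Dppa2 (2.44 to 8.03), 5.37% for Prdm14 (3.87 to 7.26), 6.35% for Dppa3 (5.93 to 6.79) and 7.02% for Nanos3 (5.08 to 9.5). Dppa4 at 13.0% (11.3 to 14.8) and Dppa5a at 14.3% (13.7 to 14.9) formed a higher pair with overlapping intervals, and Prdm1 stood at 75.7% (67.0 to 85.6). The intervals of Dppa3 and Dppa5a do not overlap, but they cover counting error only and the difference between the genes was not tested. The member median was 6.35%. The median of 14 other primordial germ cell and pluripotency genes was 6.5%, from 0.791% for Alpl, the alkaline phosphatase used to stain germ cells, to 32.7% for Sox2. Over all 7799 genes at 10 TPM or more in Runx1- IAHC the median was 49.7% with quartiles of 23.6% and 97.1%, and 14.6% of them were at 15% or less.

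**Figure D3:**
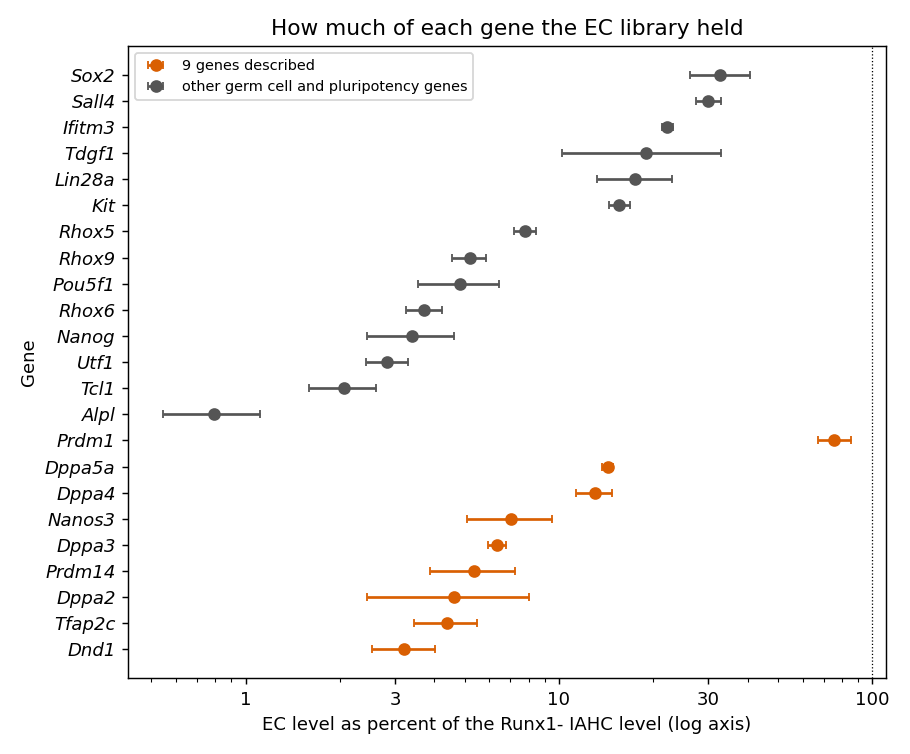
EC level as a percentage of the Runx1- IAHC level, on a log axis, for the 9 genes described (orange) and 14 other germ cell and pluripotency genes (grey), with exact 95% counting intervals as bars and a dotted line at 100%. The intervals of Dnd1 (3.21%) and Dppa5a (14.3%) do not overlap, and Prdm1 (75.7%) lies above every other gene drawn.

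The low levels in the Runx1+ libraries differed between members. Dppa5a had 72 reads in HEC and 0 in Runx1+ IAHC, a ratio of Runx1+ IAHC to HEC of at most 0.0427. Nanos3 also had more reads in HEC, at 20 against 3 (ratio 0.154, 0.0293 to 0.519), and so did Dnd1, at 41 against 22 (ratio 0.55, 0.312 to 0.946). Prdm1 took the opposite direction, with 78 reads in Runx1+ IAHC and 0 in HEC. For Dppa4 the ratio of Runx1+ IAHC to HEC was 0.684 (0.142 to 2.88) and for Tfap2c it was 4.62 (0.955 to 43.9), and neither difference was detectable at this depth. Prdm14, Dppa2 and Dppa3 had 3 reads or fewer in both libraries and no ratio was formed.

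Other genes of the germ cell program were read from a fixed list. Of 14 such genes, 13 were at 10 TPM or more in Runx1- IAHC. Of these, 11 were at least 4-fold higher than in EC, 11 than in Runx1+ IAHC and 13 than in HEC, with backgrounds of 20.9%, 17.5% and 20%. Only 6 of the 14 reached 10 TPM in EC, 2 in Runx1+ IAHC and 1 in HEC. Most thus entered through their Runx1- IAHC level alone and could not come out lower, so these counts say little. Pou5f1, the core pluripotency factor, was at 52.4 TPM in Runx1- IAHC (1092 reads) and 2.59 TPM in EC (48 reads), with 2 reads in Runx1+ IAHC and 0 in HEC. Kit, the gene of the sorted receptor, was at 34.5 TPM in Runx1+ IAHC, 1.08 TPM in HEC and 9.69 TPM in EC, and Runx1- IAHC was 1.8-fold above Runx1+ IAHC (1.72 to 1.88). Ifitm3, a membrane protein first used to mark specified germ cells, was highest in Runx1- IAHC at 2172 TPM. It was not confined to that library, with 483 TPM in EC, 521 TPM in HEC and 508 TPM in Runx1+ IAHC. In contrast, none of the 7 later germ cell genes measured reached 10 TPM in any library. In Runx1- IAHC, Stk31 had 186 reads, Mov10l1 152, Dazl 101, Mael 94 and Sycp3 25. Tex101, a later surface protein of male germ cells, had 0 in every library. By TPM the other 6 of the 7 were highest in Runx1- IAHC. Mael had 0 reads outside it, and Stk31 and Mov10l1 had 23 and 11 in EC and 0 in HEC and Runx1+ IAHC. In Runx1+ IAHC, Dazl had 33 reads and Sycp3 15. Ddx4, the RNA helicase of the germ plasm, had 93 reads in Runx1- IAHC and 92 in Runx1+ IAHC.

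RNA of the listed genes whose proteins work with the members was found in every library, except for Dnmt3l, and some genes were low. Of 7 partners of Prdm1, Prdm14 and Tfap2c that were compared, 2 were at least 4-fold higher in Runx1- IAHC than in EC, a share near the background of 20.9%. Prmt5, the arginine methyltransferase that binds Prdm1 in germ cells, was 5.05-fold higher (4.72 to 5.42), and Cbfa2t2, the corepressor that binds Prdm14, was 8.11-fold higher (7.28 to 9.06). Relative to Runx1+ IAHC, Cbfa2t2 was 10.2-fold higher (9.1 to 11.4) and Prmt5 3.32-fold higher (3.15 to 3.51). Nanos3 and Dnd1 recruit the CCR4-NOT complex, which removes poly(A) tails, and of 12 genes of that complex and of Pumilio proteins 1 was higher and 3 were lower in Runx1- IAHC than in EC, with backgrounds of 20.9% and 6.39%. The higher gene was Cnot9, at 140 TPM in Runx1- IAHC and 31.2 TPM in EC. The 3 lower genes were Cnot6 with 588 reads, Cnot6l with 136 and Cnot11 with 60 in Runx1- IAHC, whereas their levels in EC were 82.6, 12.6 and 20.9 TPM. These 3 were under 10 TPM in Runx1- IAHC, entered through their EC level alone and could only come out lower, so their count says little. Among the DNA methylation factors, Uhrf1 and Dnmt1 were present in all libraries, and Dnmt3b, a methyltransferase for new sites, had 84 reads in Runx1- IAHC against 5492 in Runx1+ IAHC, 1002 in HEC and 425 in EC. Dnmt3a, the other such methyltransferase, was instead at 22.5 TPM in Runx1- IAHC, 18.2 TPM in Runx1+ IAHC, 17.7 TPM in HEC and 8.53 TPM in EC. Dnmt3l had 0 reads in all 4 libraries. Of 12 genes compared in the list of PRC1.6 and other repressors of germ cell promoters, 1 was higher and 0 were lower in Runx1- IAHC than in EC, with the same backgrounds of 20.9% and 6.39%. Against Runx1+ IAHC 0 differed by that much in either direction, with backgrounds of 17.5% higher and 5.6% lower.

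The signals and targets around specification were read from a list of BMP and WNT pathway genes. Of 6 compared between Runx1- IAHC and EC, 4 were at least 4-fold lower and 0 were higher in Runx1- IAHC, with backgrounds of 6.39% and 20.9%. The 4 lower genes (Bmpr2, Acvr1, Smad1 and T) entered the comparison through their EC level alone and could only come out lower, so the count says little. Acvr1, a BMP receptor, was at 16.1 TPM in EC and 1.81 TPM in Runx1- IAHC (80 reads), and T, the mesoderm factor brachyury, was at 10 TPM in EC and had 0 reads in Runx1- IAHC. Among the relatives of the members, none of the 14 other Prdm genes reached 10 TPM in Runx1- IAHC, and none of the 4 other AP-2 genes did so in any library. Most genes did not reach that level, since 7799 of all 51205 genes were at 10 TPM or more in Runx1- IAHC. Nanos1 and Nanos2 had 0 reads in Runx1- IAHC, and Dppa1 had 0 reads in all 4 libraries.

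Copies of the members make their read counts uncertain. Dppa3-ps, a processed pseudogene of Dppa3 on chromosome X, was at 544 TPM in Runx1- IAHC, 43.9 TPM in EC and had 0 reads in the other libraries, a fold of 12.5 for Runx1- IAHC over EC (10.6 to 14.7). Dppa5c, a pseudogene copy near Dppa5a on chromosome 9, was at 387 TPM in Runx1- IAHC, 61.7 TPM in EC and 2.2 TPM in HEC. The ratio of Dppa5a to Dppa5c per length was 8.87 in Runx1- IAHC (8.37 to 9.4) and 7.99 in EC (6.87 to 9.35), which overlap. Dppa3 was 3.43 times Dppa3-ps in Runx1- IAHC (3.28 to 3.59) and 2.71 times in EC (2.3 to 3.22). How reads were divided between near-identical copies was not tested, so the levels of Dppa3 and Dppa5a may be split over these rows.

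The protein-coding genes nearest to each member were read as well, up to 2 on each side, in GRCm38 coordinates of the deposited table. On chromosome 16, Dppa4 (chr16:48283735-48294292) and Dppa2 (chr16:48310477-48319723) lie 16185 bases apart on the plus strand. The genes that flank the pair, Gm7275 and Gm5485, had 0 reads in all 4 libraries. Beyond Gm5485, 111514 bases from Dppa2, Morc1, a chromatin protein of male germ cells, was at 32.8 TPM in Runx1- IAHC (928 reads) and 4.05 TPM in EC (103 reads), with 0 reads in HEC and Runx1+ IAHC. Dppa3 (chr6:122626410-122630272) lies between Gdf3, a growth factor of pluripotent cells, and Nanog, a pluripotency factor. Gdf3 was at 55.5 TPM in Runx1- IAHC, 1.76 TPM in EC, 1.3 TPM in HEC and 5.76 TPM in Runx1+ IAHC, so EC was 0.3 times Runx1+ IAHC (0.201 to 0.437), an order no member had. Nanog was at 65.5 TPM in Runx1- IAHC (1360 reads), and its fold over EC was 29.4 (21.7 to 41). The next gene, the glucose transporter gene Slc2a3, was at 167 TPM in HEC and 60.5 TPM in Runx1- IAHC, and on the other side Apobec1 had 0 reads in Runx1- IAHC. Dppa5a (chr9:78367052-78368177) is followed by Ooep, an oocyte and embryo protein with a KH domain, at 8.72 TPM in Runx1- IAHC (172 reads) and 2.33 TPM in EC (41 reads), with 0 reads in HEC and Runx1+ IAHC.

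**Figure D4:**
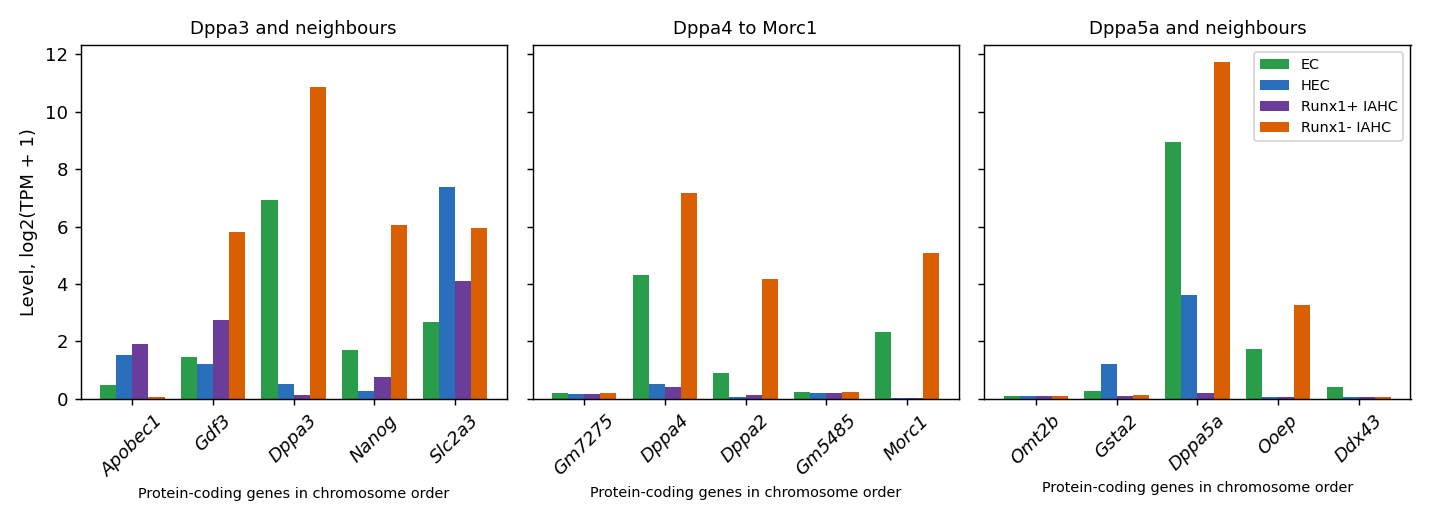
Levels as log2(TPM + 1) in the 4 libraries for Dppa3, for Dppa4 and Dppa2 and for Dppa5a with the nearest protein-coding genes, in chromosome order and not to scale along the chromosome. Gdf3, Nanog, Morc1 and Ooep share the highest level in Runx1- IAHC with the Dppa genes beside them, whereas Apobec1, Gsta2 and Ddx43 are low there and Slc2a3 is highest in HEC.

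Dnd1 (chr18:36763671-36766214, minus strand) overlaps the end of Wdr55 on the opposite strand by 38 bases, and the libraries do not mark the strand. Wdr55 was at 168 TPM in Runx1- IAHC and 16.5 TPM in EC, a fold of 10.3 (8.9 to 11.9). Its levels were 61.2 TPM in Runx1+ IAHC and 33.8 TPM in HEC, and those of Dnd1 were 0.936 and 1.67 TPM. The neighbours Hars, at 262 TPM, and Ik, at 204 TPM, were likewise high in Runx1- IAHC. How far transcripts of Wdr55, Hars and Ik add reads to Dnd1 was not tested. Prdm14 (chr1:13113457-13127163) lies beside Ncoa2, whose levels were 3.19 TPM in EC, 3.87 TPM in HEC, 3.29 TPM in Runx1+ IAHC and 4.2 TPM in Runx1- IAHC. Tfap2c (chr2:172549593-172558622) is followed by Bmp7, at 3.86 TPM, and Spo11, the meiotic recombination nuclease, at 5.44 TPM in Runx1- IAHC with 197 reads against 5 in EC. Prdm1 (chr10:44437177-44528501) has Atg5 and Prep beside it, at 89.4 and 33.7 TPM in Runx1- IAHC. Nanos3 (chr8:84173731-84185217) has Zswim4 beside it, at 3.71 TPM in Runx1- IAHC and 7.41 TPM in EC.

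The genes most like each member were found by the distance between profiles of log2(TPM + 1) over the 4 libraries, each centred on its mean, among 7670 genes. With 4 libraries many genes share a profile, and the names describe only these values. Nearest to Tfap2c was Pou5f1 at a distance of 0.14, followed by the noncoding gene Platr14 at 0.148. Prdm14 was nearest to Porcn at 0.205, Dnd1 to Mapk13 at 0.321 and Dppa2 to Zfp951 at 0.0936. Prdm1 had other neighbours, with Mboat2 at 0.233, Tcf7l2 at 0.291 and Btbd3 at 0.305, and Tcf7l2 was at 25.9 TPM in Runx1- IAHC, 15.1 TPM in EC, 2.79 TPM in Runx1+ IAHC and 0.767 TPM in HEC. Nanos3 was nearest to Porcn at 0.805, with Prdm14 next at 0.825. Dppa4 was nearest to Plcd1 at 0.534 and then to Rhox5, a homeobox gene of the reproductive tract, at 0.879. The steep profiles of Dppa3 and Dppa5a had no near match, with Dppa3-ps at 1.59 and Rhox6 at 2.1 for Dppa3, and Dppa3 at 2.31 for Dppa5a.

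Markers of the cells that surround germ cells were compared with the members. The 6 gonadal and coelomic markers, which include Wt1, Gata4 and Nr5a1, had 0 reads in Runx1- IAHC for 6 of 6 genes. Most genes had 0 reads in that library, where 18830 of all 51205 genes had a read, against 23149 in EC. In EC the 6 markers ranged from 0.28 to 2.25 TPM and summed to 6.53 TPM, and in HEC and Runx1+ IAHC they summed to 1.42 and 0.224 TPM. Of the 5 mesonephric epithelium markers only Epcam, which germ cells also carry, was at 10 TPM or more in Runx1- IAHC, at 104 TPM (982 reads), and Pax2, Pax8 and Cdh16 had 0 reads there. Mural and mesenchymal markers summed to 5.7 TPM in Runx1- IAHC and 24.1 TPM in EC, with Acta2 and Pdgfrb at 0 reads in Runx1- IAHC. Rgs5, a pericyte marker, made up most of the Runx1- IAHC sum, at 5.55 TPM (233 reads) against 1.25 TPM in EC (47 reads). Of the 9 endothelial markers, 5 were highest in EC, such as Cdh5 at 401 TPM in EC and 31.1 TPM in Runx1- IAHC, and 4 were highest in Runx1- IAHC, such as Cldn5 at 355 and 1196 TPM. Their part in the levels of the 9 genes was not tested.

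**Figure D5:**
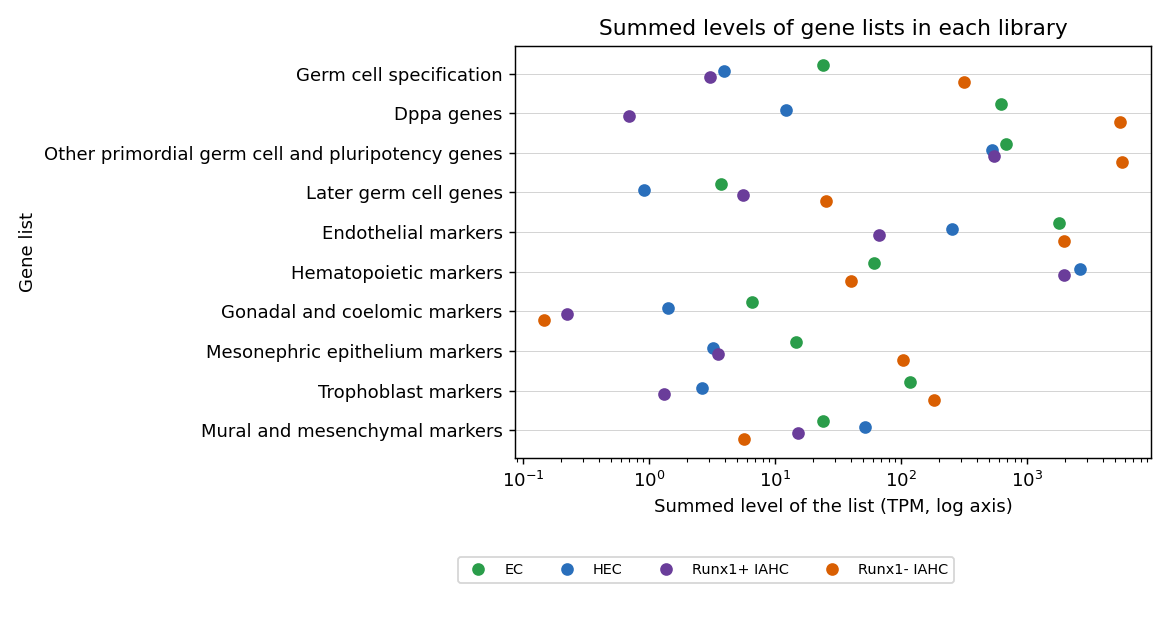
Summed level in TPM, on a log axis, of 10 gene lists in the EC, HEC, Runx1+ IAHC and Runx1- IAHC libraries, with 1 point per library. The germ cell specification list (315 TPM) and the Dppa list (5455 TPM) are highest in Runx1- IAHC, where the gonadal and coelomic list (0.148 TPM) is lowest.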

How the data were processed

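RNA was measured by RNA-seq in 4 sorted populations (1 library each) of pooled embryonic day 11 AGMs. According to the labels and the study's methods, cDNA was made with a SMARTER template-switching kit, libraries were transposase-made single reads without strand information, and reads were aligned with HISAT2 2.0.4 to GRCm38 and counted in union mode, in which reads on more than 1 gene are dropped. The deposited TPM values were computed by the authors, and they fitted whole counts with 1 read added to every gene. In smaller sheets of the same workbook, which repeat a few genes, 9 columns of other samples were not used.

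Exonic lengths came from GENCODE M21 (GRCm38). Whole reads, within 1e-05 of a read, were recovered for 49294 of 51205 genes (96.3%). The other 1911, Dppa2, Dppa4 and Runx1 among them, took the shortest length that gave whole reads in all libraries, a search that returned the annotated length for 99% of 500 genes checked. Total reads were 13188697 to 17233015 per library, and 18830 to 23149 genes had a read. Differences used log2(TPM + 1) for genes that reached 10 TPM in the library with the higher value, with a limit of 2. Folds used recovered reads with exact Clopper-Pearson intervals, levels used exact Poisson intervals (95%), and 3 reads stood in for 0 in folds. No fold was given where both libraries had 3 reads or fewer. Alternatives were minimum levels of 1 TPM or none, pseudocounts of 0.1 and 5 TPM, the ratio of deposited TPM, and scaling by median ratios or without mitochondrial, ribosomal protein and hemoglobin genes. The members, lists and motifs were chosen with earlier results of these data known. The members were named in full, with the 3 genes nearest in profile and the 2 protein-coding neighbours on each side searched for each. The count rule and the intervals were tested on simulated data. Python 3.11.15, pandas 2.3.3, NumPy 2.4.6, SciPy 1.17.1 and Matplotlib 3.10.9 were used. The result of 1 listed gene is not reported here.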

Additional observations from a re-analysis of the deposited data

Results flagged for a closer look

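For 3 of the 9 genes the ckit+ library lay above the ckit- library among Runx1- cells and below it among Runx1+ cells. Nanos3 was 14.2-fold higher in Runx1- IAHC than in EC, whereas Runx1+ IAHC was at 0.154 times HEC. Dnd1 was 31.2-fold higher in the first comparison and at 0.55 times in the second, and Dppa5a was 6.99-fold higher in the first and at most 0.0427 times in the second. With 1 library per population, the difference between the comparisons was not tested. How many of all genes take opposite directions in this way was not counted, so the count of 3 has no background. The Runx1+ values rest on few reads, from 0 to 72 per gene.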

How the results depend on the processing

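No paired analysis was possible because each population has 1 library, and for the same reason no library could be left out. The 8 of 9 genes higher in Runx1- IAHC than in EC stayed 8 under every alternative except a pseudocount of 5 TPM, which gave 7. The count of 9 over Runx1+ IAHC and that over HEC stayed 9 except at that pseudocount, which gave 8 for each. EC over Runx1+ IAHC rose from 3 genes to 5 with a minimum of 1 TPM and to 5 with no minimum, since more genes were then compared. The single difference between Runx1+ IAHC and HEC went to 0 with a pseudocount of 5 TPM. Prdm1 in Runx1- IAHC over EC reversed from 1.32 to 0.928 with median-ratio scaling, which moved the median of all genes in that comparison from 0.71 to 0.08 in log2(TPM + 1), and leaving hemoglobin, ribosomal protein and mitochondrial genes out of the scaling moved it to 0.41. Of 51 folds of the members, 14 are bounds without a counting interval. Of the 37 with an interval, 28 stayed within it under median-ratio scaling, 33 without those genes and 37 as ratios of deposited TPM. The depth limits HEC and Runx1+ IAHC, in each of which 5 of 9 genes had 3 reads or fewer.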

Other observations

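Of 9 trophoblast markers, Prl3b1, a placental prolactin family hormone, was at 171 TPM in Runx1- IAHC (1692 reads) and 117 TPM in EC (1052 reads), with 0 reads in HEC and Runx1+ IAHC. The fold of Runx1- IAHC over EC was 1.46 (95% counting interval 1.35 to 1.58). Gcm1, a factor of labyrinth trophoblast, had 130 reads and Cdx2, a factor of trophectoderm and hindgut, had 112 reads in Runx1- IAHC, and both had 0 reads in HEC and Runx1+ IAHC. Prl3d1, Tpbpa, Elf5 and Eomes had 0 reads in Runx1- IAHC.

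Some genes of the somatic program that germ cell specification silences were also read. Hoxb2 had 80 reads and Hoxa2 85 reads in Runx1- IAHC, whereas Hoxb1, T, Fgf8 and Mesp1 had 0 reads there. Snai1, a factor of epithelial to mesenchymal transition, was at 16.8 TPM in EC and had 74 reads in Runx1- IAHC.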
